A study of Mus musculus with 12 samples.

Results

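Iron is carried into cells by the transferrin receptor, stored inside the ferritin shell, freed again from heme by heme oxygenase and sent out by ferroportin. The transcripts of 8 genes of this system were followed in mouse aortic endothelial cells (MAECs): Ftl1 and Fth1, which encode the light and heavy chains of ferritin; Tfrc, the transferrin receptor; Slc11a1, a metal transporter of the phagosomes of macrophages; Slc40a1, the iron exporter ferroportin; Hmox1 and Blvrb, which encode heme oxygenase 1 and biliverdin reductase B; and Ireb2, which encodes iron regulatory protein 2. They were chosen by symbol, with earlier results of these data known, and all 8 of 8 were found among the 10655 genes measured. Because differences between the offspring diets were in view when they were chosen, those differences are described below without a test.

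RNA of the aortic endothelial cells had been sequenced by SMART-seq, a full-length RNA protocol, per the series text. There were 12 libraries in 4 groups of 3: WD offspring of WD mothers (WD_WD), WD offspring of CD mothers (CD_WD), CD offspring of WD mothers (WD_CD) and CD offspring of CD mothers (CD_CD). The titles join the names of 2 diets without saying whose they are. The series text writes the mother before her offspring, and the titles were read in that order. WD and CD are kept as written there. The series title speaks of a high-fat diet of the mother and of atherosclerosis in the offspring, and WD offspring had received WD again for 4 weeks. The sources used here give no genotype, sex, age or sorting of the cells, and not the animals behind each replicate. The p-values therefore measure the spread between these samples only, which may be technical, and the offspring's diet and any preparation or batch that went with it cannot be told apart.

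Iron controls several of these transcripts through a stem-loop, the iron-responsive element, to which iron regulatory proteins bind when iron is scarce. In the 5′ UTR of ferritin and ferroportin messages, binding holds back translation. In the 3′ UTR of the transferrin receptor message, it protects the RNA from decay. The protein of Ireb2 is itself removed when iron is plentiful. Heme oxygenase 1 opens the heme ring, releasing iron and biliverdin, and its gene is a known target of oxidative stress signalling. Macrophages that take up red cells and lipids are the body's main recyclers of heme iron, which is why the macrophage content of each library is given beside the results.

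The elements are shown first, because they are the sequence feature that joins ferritin, ferroportin and the transferrin receptor. GENCODE M21 transcripts on GRCm38 were searched for a C, 5 bases of any kind and the loop CAGTGN, in which the 5 bases after the C pair with the 5 bases after the loop, G with T allowed. The search was on the strand of the transcript. Capitals mark the bulged C and the loop; the stem lies in lower case on both sides, and each sequence is 30 bases from 5′ to 3′.
Ftl1, 5′ UTR, chr7:45459780-45459809, minus strand: gtgtcttgCttcaaCAGTGTttgaacggaa
Fth1, 5′ UTR, chr19:9982730-9982759, plus strand: gtttcctgCttcaaCAGTGCttgaacggaa
Slc40a1, 5′ UTR, chr1:45925466-45925495, minus strand: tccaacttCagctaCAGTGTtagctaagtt
Tfrc, 3′ UTR, chr16:32631217-32631246, plus strand: ataattatCggaagCAGTGCcttccataat
Tfrc, 3′ UTR, chr16:32631596-32631625, plus strand: cacattatCgggagCAGTGTcttccataat
Tfrc, 3′ UTR, chr16:32631661-32631690, plus strand: gtctatatCggagaCAGTGAtctccatatg
Tfrc, 3′ UTR, chr16:32631708-32631737, plus strand: gtaattatCgggaaCAGTGTttcccataat
Such a match was found in the 5′ UTR of 14 and in the 3′ UTR of 72 of 10094 genes scanned, which is 0.139% and 0.713%. Of the 8 genes, 4 had one. Tfrc was the only gene scanned with 4 matches in its 3′ UTR. A match is a description of the letters, and no binding was measured here.

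Ftl1 and Fth1 also had the highest differences between the offspring diets of the 8 genes, so the 120 bases upstream of their RefSeq start sites are shown (GRCm38.p6). The RefSeq promoter table held 6 of the 8 genes, all but Hmox1 and Slc40a1. Capitals mark ATTGG, the reverse complement of CCAAT, the letters of a general promoter motif.
Ftl1, chr7:45459887-45460006, minus strand: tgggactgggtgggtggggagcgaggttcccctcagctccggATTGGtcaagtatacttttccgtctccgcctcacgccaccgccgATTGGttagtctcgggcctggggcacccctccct
Fth1, chr19:9982526-9982645, plus strand: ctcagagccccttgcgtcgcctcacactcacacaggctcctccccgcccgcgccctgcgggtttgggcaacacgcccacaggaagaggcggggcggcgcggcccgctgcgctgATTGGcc
CCAAT on either strand was present in the 120 bases upstream of 21.3% of 32851 promoters. The 6 genes with an entry had 9 promoters, and it was present in 2 of these 9, those of Ftl1 and Fth1. The antioxidant response motif TGACNNNGC was searched on both strands of the 300-base window. It was present in 12.4% of promoters and in 0 of the 9 of these 6 genes, which says only that these letters are not in this window.

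The libraries held 4074413 to 12487609 reads in WD_WD, 7184178 to 18013966 in CD_WD, 10667657 to 17222566 in WD_CD and 16966696 to 19670570 in CD_CD. Values are normalised counts, that is, reads per gene divided by a size factor per library. Markers of endothelial cells, 15 of 15 measured, summed to 11411 to 19640 normalised counts in WD_WD, 2287 to 36682 in CD_WD, 58374 to 81032 in WD_CD and 75064 to 96654 in CD_CD. Among those markers only Robo4 was at 0, in WD_WD replicate 2. Markers of macrophages and monocytes, 16 of 16 measured, summed to 666511 to 1255898 in WD_WD, 48325 to 665582 in CD_WD, 11902 to 130275 in WD_CD and 22138 to 39842 in CD_CD, with none at 0 in any library. With WD mothers, 7 of the 15 endothelial markers fell and 9 of the 16 macrophage markers rose in WD offspring; with CD mothers, 8 fell and 3 rose (limma, adjusted p under 0.05). Neutrophil markers, 4 of 12 measured, summed to 13403 to 171225 in WD_WD and 24869 to 192565 in CD_WD, against 56.2 to 801 in WD_CD and 104 to 416 in CD_CD. Their median log2 difference between the offspring diets was 7.37 with WD mothers, where 4 of 4 rose, and 7.06 with CD mothers, where 3 rose. Of 11 lymphocyte markers, 3 rose with WD mothers and 6 with CD mothers, with medians of 3.85 and 4.44, and of 6 dendritic cell markers 1 and 2 rose, with medians of 3.05 and 2.10. Of 9 smooth muscle markers, 2 fell with WD mothers and 7 with CD mothers, with medians of -1.37 and -3.59. Of 7 fibroblast markers, 3 fell with WD mothers and 0 were called with CD mothers, with medians of -2.38 and -0.55, and of 4 platelet markers none was called, with medians of 1.84 and 1.48. Beside these counts, 14.2% of all genes rose and 10.2% fell with WD mothers, and 9.46% rose and 5.55% fell with CD mothers. None of these markers was called for the mother's diet. Every WD offspring library had a lower endothelial sum than every CD offspring library, against the label that all libraries share. CD_WD replicate 1 stood apart: it had the lowest endothelial sum, 2287, the lowest macrophage sum of the WD offspring, 48325, and the highest lymphocyte sum of the 12 libraries, 408163 over 11 of 12 markers. In bulk RNA, fewer cells of a type and less RNA per cell cannot be told apart. Each result below is read beside these values, whose part in it was not tested.

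Ferritin transcripts were far more abundant in WD offspring. Ftl1 had 1782663, 1457068 and 1068804 normalised counts in WD_WD and 561327, 693468 and 897072 in CD_WD, against 81698, 31580.5 and 52669 in WD_CD and 30781, 40164 and 33819 in CD_CD. Every WD offspring library was above every CD offspring library. The log2 difference on log2(value + 1) was 4.77 ± 0.87 (SE) with WD mothers and 4.34 ± 0.87 with CD mothers.

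Fth1, whose chain carries the ferroxidase site of ferritin, had 988867, 818475 and 508829.9 normalised counts in WD_WD and 530364, 495980.4 and 575676 in CD_WD. In CD offspring it had 50159, 26999.9 and 36379 in WD_CD and 28941, 38022 and 42383 in CD_CD. Again no WD offspring library overlapped with a CD offspring library, and the log2 differences were 4.34 ± 0.76 with WD mothers and 3.89 ± 0.76 with CD mothers. Both ferritin genes together took 9.78% to 13.5% of all reads in genes in WD_WD and 3.82% to 9.50% in CD_WD, against 0.854% to 1.84% in WD_CD and 0.875% to 1.11% in CD_CD. Both genes have near-identical pseudogene copies in the mouse genome, and the sources used here do not say how the authors counted reads that match several places, so these levels are uncertain to that extent.

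**Figure D1:**
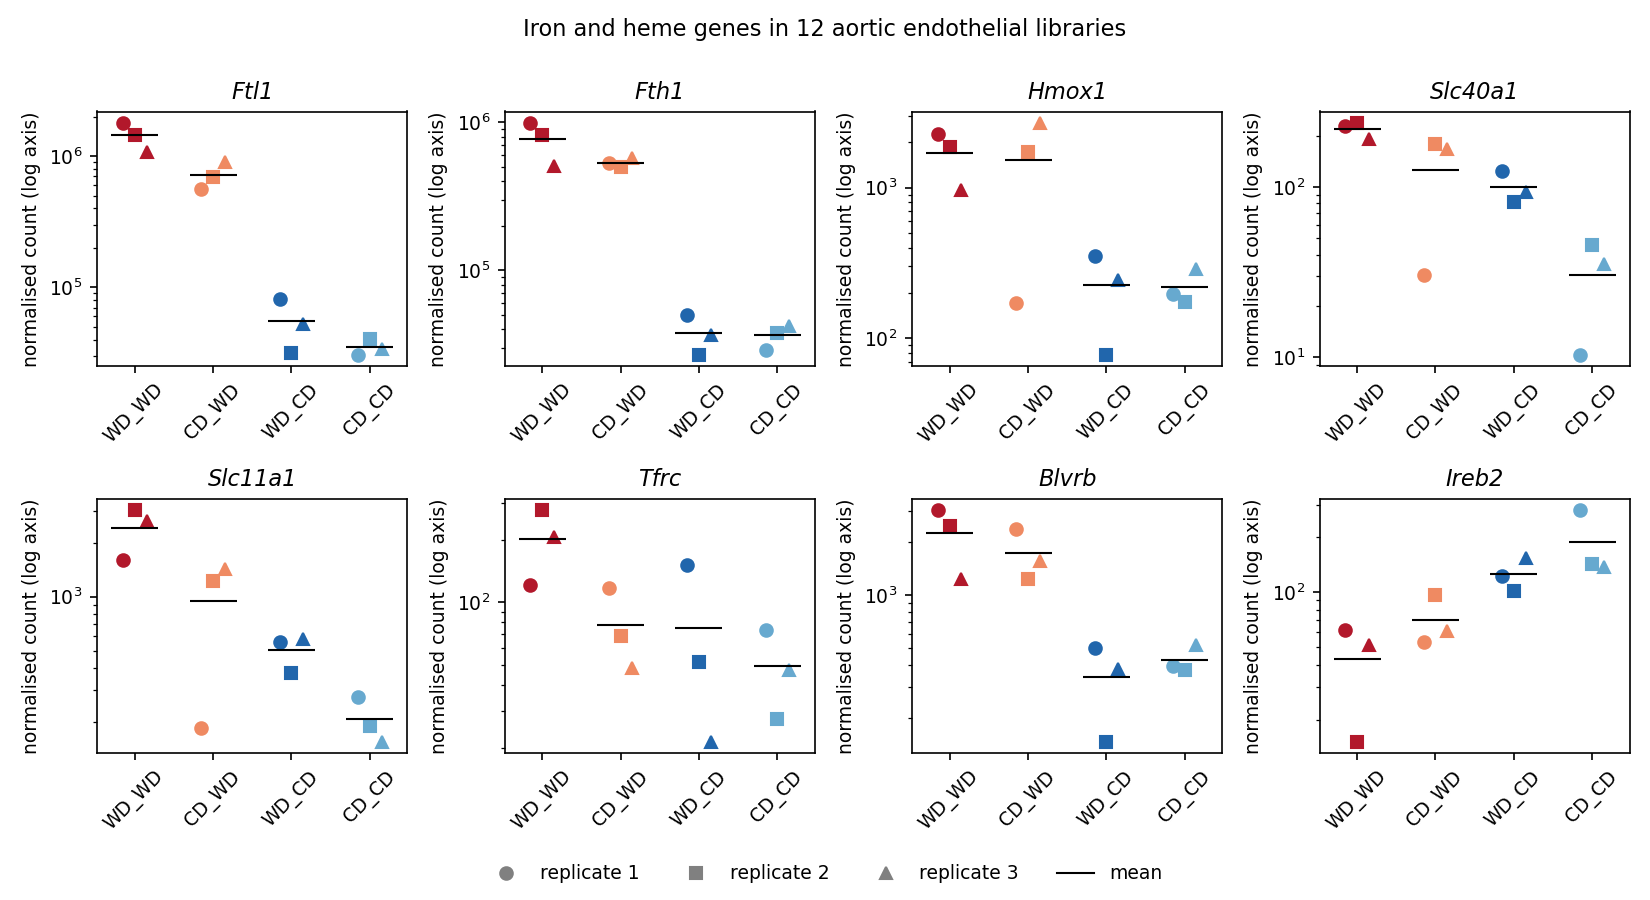
Normalised counts (log axis) of the 8 iron and heme genes in 12 libraries, by group; points are replicates and lines are means of 3. Ftl1 and Fth1 lie between 495980.4 and 1782663 in every WD offspring library and between 26999.9 and 81698 in every CD offspring library, while Ireb2 runs the other way.

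The balance of light to heavy chain transcripts differed between the mothers' diets and between the offspring diets. Per kilobase of transcript, the ratio of Ftl1 to Fth1 was 1.73, 1.71 and 2.02 in WD_WD, against 1.02, 1.34 and 1.496 in CD_WD. In CD offspring it was 1.56, 1.12 and 1.39 in WD_CD, against 1.02, 1.01 and 0.766 in CD_CD. Offspring of WD mothers had the higher ratio in both offspring diets with no overlap between the groups. WD offspring also had the higher mean ratio with either kind of mother, without overlap with WD mothers and with overlap with CD mothers. Before division by length, the mean log2 ratio was 0.92 in WD_WD, 0.40 in CD_WD, 0.49 in WD_CD and -0.05 in CD_CD. In the same order of libraries, the mean log2 level of the 16 macrophage markers was 13.03, 13.21 and 12.79 in WD_WD and 8.64, 12.21 and 12.74 in CD_WD. In CD offspring it was 11.51, 8.20 and 9.88 in WD_CD and 8.66, 9.99 and 9.01 in CD_CD. The part of the macrophage markers in the ratio was not tested. This ratio was picked out after its values were seen, so it is given without a test, and with 3 libraries against 3 no exact two-sided permutation test can go below 0.1.

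**Figure D2:**
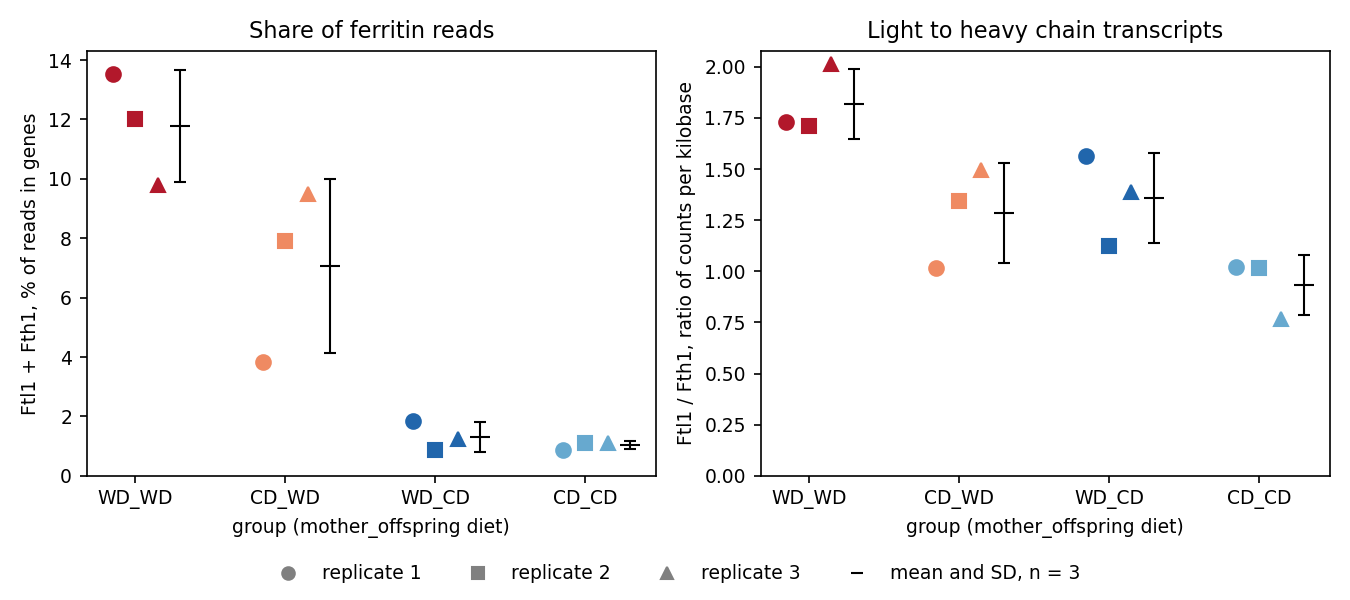
Share of all reads in genes taken by Ftl1 and Fth1 together (left, %) and ratio of Ftl1 to Fth1 counts per kilobase (right), by group; points are replicates, bars are the mean and SD of 3. The share is 3.82% or more in every WD offspring library and 1.84% or less in every CD offspring library. The mean ratio is higher with WD mothers in both offspring diets, and higher in WD offspring with either kind of mother.

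Tfrc, the receptor for iron-loaded transferrin, was scarce in all groups. It had 121, 278 and 206 normalised counts in WD_WD and 117, 69.0 and 48.2 in CD_WD, against 151, 51.8 and 21.4 in WD_CD and 73.2, 27.4 and 47.5 in CD_CD. The offspring diets overlapped with either kind of mother. The log2 difference was 1.76 ± 0.80 with WD mothers and 0.66 ± 0.80 with CD mothers, and the second turned to -0.76 when values were scaled to the library total.

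Slc11a1, which pumps iron and manganese out of the phagosome, had 1608, 3034 and 2625 normalised counts in WD_WD and 556, 376 and 583 in WD_CD. With CD mothers it had 185, 1226 and 1432 in CD_WD and 275, 190.0 and 155 in CD_CD. On these normalised counts the groups were apart with WD mothers (log2 difference 2.24 ± 0.64) and overlapped with CD mothers (1.77 ± 0.64). There CD_WD replicate 1, at 185, lay among the CD offspring. Without that library the difference with CD mothers was 2.72. The difference with WD mothers became 0.85 when values were scaled to the library total.

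Slc40a1, the only known exporter of iron from animal cells, had 226, 237 and 190.1 normalised counts in WD_WD and 30.4, 178 and 166 in CD_WD, against 124, 81.7 and 93.0 in WD_CD and 10.4, 45.4 and 35.3 in CD_CD. WD_WD was above every other library, and WD_CD was above CD_CD. The offspring diets differed by 1.135 ± 0.79 on the log2 scale with WD mothers, which became -0.24 under scaling to the library total, and by 1.87 ± 0.79 with CD mothers, where the groups overlapped through CD_WD replicate 1.

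Hmox1 and Blvrb, the enzymes that open heme and reduce its products, were both higher in WD offspring. Hmox1 had 2291, 1852 and 966 normalised counts in WD_WD and 172, 1732 and 2687 in CD_WD, against 354, 78.1 and 245 in WD_CD and 198, 174 and 290.1 in CD_CD. Its groups were apart with WD mothers (log2 difference 3.07 ± 0.86) and overlapped with CD mothers (2.10 ± 0.86, and 3.32 without CD_WD replicate 1). Blvrb had 3039, 2467 and 1239 in WD_WD and 2386, 1234 and 1556 in CD_WD, against 500.2, 147 and 381 in WD_CD and 392, 374 and 517 in CD_CD. Here no library overlapped, with log2 differences of 2.79 ± 0.48 with WD mothers and 1.97 ± 0.48 with CD mothers. In CD_WD replicate 1 Hmox1 was at the level of the CD offspring while Blvrb, at 2386, was the highest of its group.

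Ireb2 was the one member that was lower in WD offspring. It had 61.6, 15.2 and 51.5 normalised counts in WD_WD and 53.2, 96.2 and 61.1 in CD_WD, against 122, 101 and 152 in WD_CD and 280.3, 142 and 136 in CD_CD. No WD offspring library reached the lowest CD offspring library. The log2 differences were -1.73 ± 0.68 with WD mothers and -1.36 ± 0.68 with CD mothers. Few reads stand behind the low values: WD_WD replicate 2 had 10 reads of Ireb2, and Slc40a1 had 12 reads in CD_WD replicate 1 and 30 in CD_CD replicate 1.

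Counted over the 8 genes, 6 were higher in WD offspring without overlap when the mothers were on WD, beside 21.9% of all genes, and 3 when the mothers were on CD, beside 21.9%. Leaving out CD_WD replicate 1 made the second count 6. Ireb2 alone was lower without overlap in each case, beside 19.4% of all genes with WD mothers and 21.6% with CD mothers. The median log2 difference of the 8 was 2.51 with WD mothers and 1.92 with CD mothers, against 0.01 and -0.02 over all genes. Since the members were chosen for these differences, nothing is read from the counts. Scaling to the library total moved the median of all genes to -1.36 and -1.45, and that of the 8 genes to 1.129 and 0.50. Under library totals the fitted log2 differences of single genes moved too. With WD mothers Ftl1 became 3.39, Fth1 2.96, Hmox1 1.69, Blvrb 1.40, Slc11a1 0.85, Slc40a1 -0.24 and Ireb2 -3.09. With CD mothers Ftl1 became 2.90, Fth1 2.44, Blvrb 0.53, Tfrc -0.76 and Ireb2 -2.79.

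Transcript length ran alongside these differences. Among 10094 genes with a length, the median log2 difference with WD mothers was 1.74 for transcripts under 1000 bases, 0.51 from 1000 to under 2000, -0.13 from 2000 to under 4000 and -0.79 at 4000 and over. With CD mothers the medians were 1.39, 0.45, -0.15 and -0.69. Fth1 and Ftl1, of 929 and 968 bases, belong to the shortest class, and Ireb2, of 5770 bases, to the longest. Both ferritin genes lay above the median of their class and Ireb2 below its own; Tfrc, of 4890 bases, lay above the median of the longest class in both comparisons. The part of length in these differences was not tested.

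**Figure D3:**
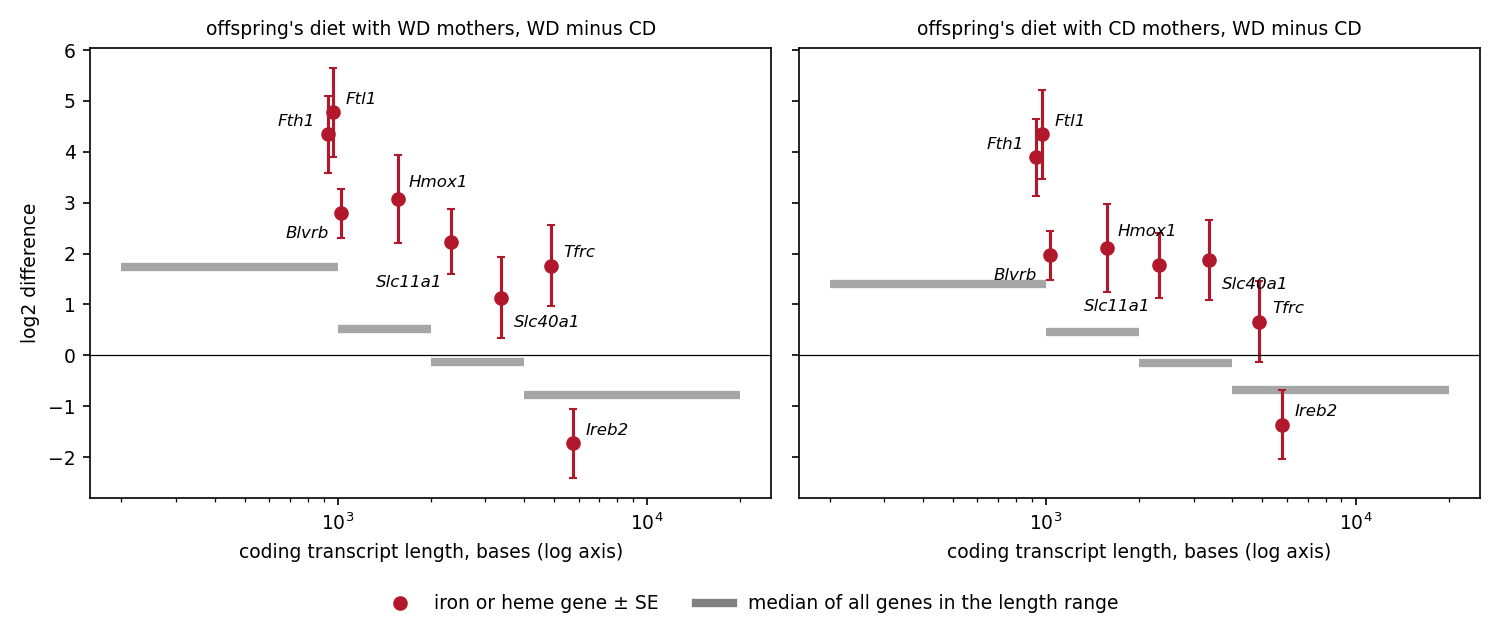
Log2 difference between offspring diets (WD minus CD, with SE) of the 8 genes against the length of their coding transcript (log axis), with WD mothers (left) and CD mothers (right); grey bars are the medians of all genes in 4 length ranges. The medians fall from 1.74 and 1.39 in the shortest range to -0.79 and -0.69 in the longest, and 7 of the 8 genes lie above the bar of their range.

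The mother's diet was tested in each offspring diet, the comparison that the series title points to. In WD offspring, 4 of the 8 genes were higher with WD mothers without overlap: Ftl1, Slc40a1, Slc11a1 and Tfrc. Without overlap, 5.86% of all genes were higher and 4.16% lower. None of the 8 passed limma's test after Benjamini-Hochberg adjustment over all genes, and 0% of all genes did. The log2 differences were 1.76 ± 0.64 for Slc11a1 (adjusted p = 0.836), 1.37 ± 0.80 for Tfrc (adjusted p = 0.863), 1.15 ± 0.79 for Slc40a1 (adjusted p = 0.880) and 1.00 ± 0.87 for Ftl1 (adjusted p = 0.924), all by limma. At an unadjusted p under 0.05 limma had 1 of the 8, Slc11a1, and 628 genes in all. No gene was called by edgeR (543 at an unadjusted p under 0.05), and 14 were called by DESeq2 (775). Without CD_WD replicate 1 the difference of Slc11a1 was 0.82 and that of Slc40a1 0.33. The macrophage markers moved the same way: 16 of 16 were higher with WD mothers, with a median log2 difference of 1.88, and none of them passed. Their part in the differences of Slc11a1 and Slc40a1 was not tested.

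In CD offspring, Slc40a1 and Slc11a1 were again higher with WD mothers without overlap, 2 of the 8 genes. Over all genes the shares were 4% higher and 4.87% lower. Slc40a1 had a log2 difference of 1.89 ± 0.79 and Slc11a1 of 1.30 ± 0.64, each with an adjusted p of 0.9998 (limma). None of the 8 passed, and 1, Slc40a1, had an unadjusted p under 0.05, as had 276 genes in all. Over all genes limma called 0, edgeR 0 (182 at an unadjusted p under 0.05) and DESeq2 9 (318). In the authors' deposited table, which holds only the mother's diet, Slc40a1 had a log2 fold change of 1.72 and Slc11a1 of 1.29, both with an adjusted p of 0.9999. For WD offspring the authors' deposited table gives 1.00 for Ftl1 (adjusted p = 0.327), 1.35 for Slc11a1 (adjusted p = 0.369), 1.38 for Tfrc (adjusted p = 0.585) and 0.80 for Slc40a1 (adjusted p = 0.815). Of the 16 macrophage markers, 14 were higher in WD_CD than in CD_CD, with a median of 0.60 and none called.

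Fth1, Hmox1, Blvrb and Ireb2 overlapped between the mothers' diets in both kinds of offspring. In WD offspring their log2 differences ran from -0.87 ± 0.68 for Ireb2 to 0.78 ± 0.86 for Hmox1, and in CD offspring from -0.51 ± 0.68 for Ireb2 to 0.03 ± 0.76 for Fth1. The interaction, that is, the mother's effect in WD offspring minus that in CD offspring, was not called for any of the 8 genes (limma, adjusted p of 0.997 for each) and for 0% of all genes; 342 genes had an unadjusted p under 0.05, edgeR called 0 and DESeq2 10. It was largest for Tfrc, 1.10 ± 1.131.

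**Figure D4:**
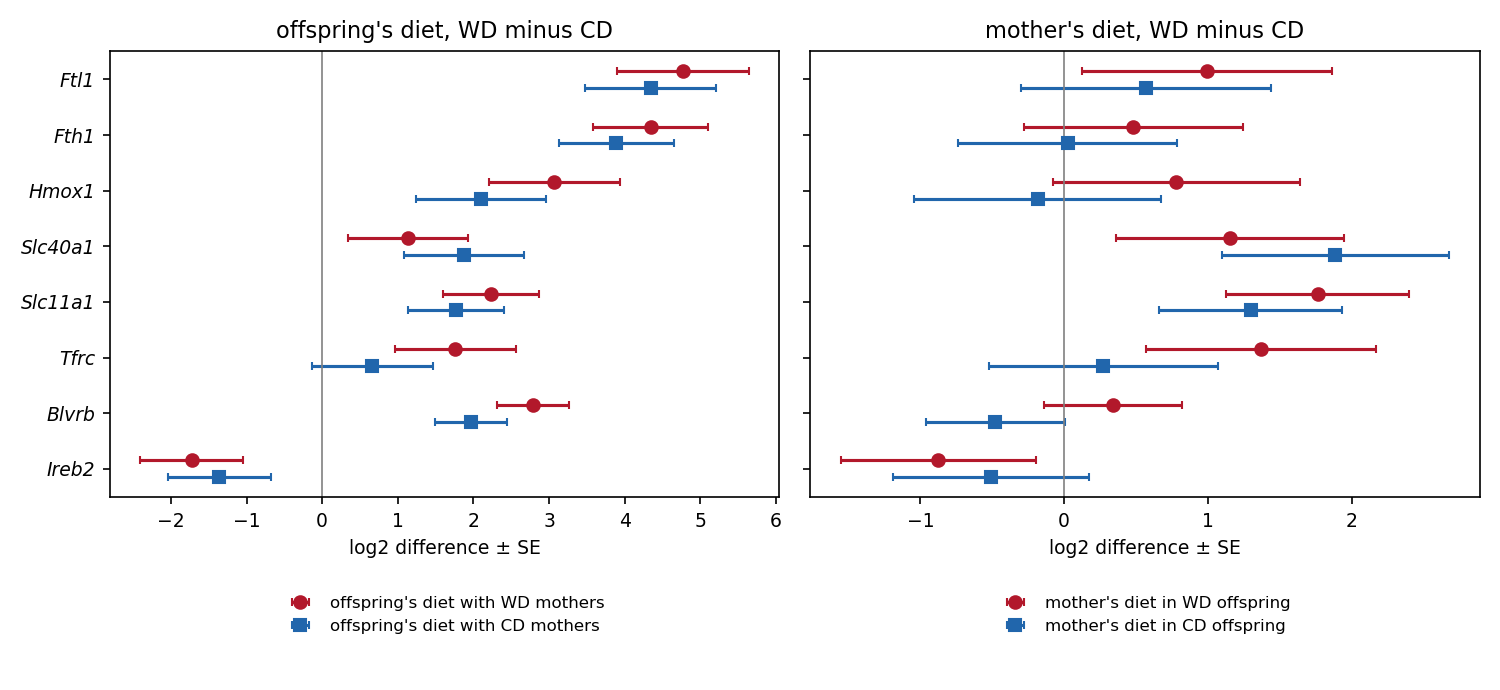
Log2 differences with SE of the 8 genes for the offspring's diet (left) and the mother's diet (right), each WD minus CD. On the left Ftl1 reaches 4.77 and Ireb2 -1.73; on the right no gene passed the test, and Slc11a1 and Slc40a1 have the highest values, 1.76 and 1.89.

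The wider system was read from 5 lists of companion genes, 97 genes of which 80 were measured. These lists, too, were chosen with earlier results of these data known, so their calls and shares are no independent support. With WD mothers, limma called 24 of the 80 in WD against CD offspring, which is 30% beside 24.4% of all genes. Of these, 18 were higher and 6 lower (all genes 14.2% and 10.2%). With CD mothers, 17 of the 80 were called, 21.3% beside 15%, with 11 higher and 6 lower (all genes 9.46% and 5.55%). This count was 4 without CD_CD replicate 1, 4 without CD_CD replicate 2 and 8 without CD_WD replicate 2. These are 5%, 5% and 10% of the 80, beside 6.55%, 6.62% and 12% of all genes in the same fits, so the companion genes' share then lay below that of all genes. Called in both were 14 genes, 58.3% of the first set and 82.4% of the second, of which 10 were higher and 4 lower. Over all genes 1236 were called in both, which is 47.5% of the first set and 77.3% of the second, with 825 higher and 411 lower. The split depends on the scaling: with library totals it was 2 higher and 28 lower with WD mothers, and 1 higher and 25 lower with CD mothers. The same fits called 4.13% of all genes as higher and 40.1% as lower with WD mothers, and 2.73% and 38.3% with CD mothers. Hpx and Bola1 were the 2 that stayed called as higher with WD mothers under library totals, and Hpx the 1 with CD mothers. The 2 comparisons share no library.

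The next list holds genes of iron-sulfur cluster assembly, which build a cofactor that consumes much of a cell's iron. With WD mothers 9 of 24 rose and none fell, beside 14.2% and 10.2% of all genes. With CD mothers 7 rose and 1, Lyrm4, fell, beside 9.46% and 5.55%. Fam96a, Iscu, Bola1, Bola3, Nubp1 and Nubp2 were among those that rose in both. The median log2 difference was 1.35 with WD mothers and 0.81 with CD mothers, against 0.01 and -0.02 over all genes; with library totals these medians turned to -0.03 and -0.63, beside -1.36 and -1.45 over all genes. Fam96a, a cytosolic iron-sulfur assembly factor, had 1919, 3447 and 1924 normalised counts in WD_WD and 1754, 1678 and 1655 in CD_WD, against 868, 461 and 388 in WD_CD and 320.2, 482 and 506 in CD_CD. Its log2 differences were 2.12 ± 0.37 (limma, adjusted p = 0.0022) and 1.99 ± 0.37 (adjusted p = 0.00463). Iscu, the scaffold on which clusters are built, had 3902, 3323 and 4039 in WD_WD and 3118, 2952 and 2448 in CD_WD, against 1403, 1354 and 1392 in WD_CD and 1396, 1378 and 1770.3 in CD_CD. It rose by 1.44 ± 0.26 (limma, adjusted p = 0.00241) with WD mothers and by 0.91 ± 0.26 (adjusted p = 0.0317) with CD mothers. Glrx5, a mitochondrial glutaredoxin of the same pathway, rose with WD mothers (2.005 ± 0.34, limma, adjusted p = 0.00190) and gave 1.01 ± 0.34 with CD mothers (adjusted p = 0.0657). Lyrm4, a partner of the cysteine desulfurase, fell with CD mothers (-1.68 ± 0.46, limma, adjusted p = 0.0272). Its call was lost in 4 of 17 alternatives, and those of Bola1 and Nubp1 with CD mothers in 5 of 17 each. The list is short in transcript length, with a median of 1874.5 bases in 22 genes with a length against 2739 over all genes, and 8 of the 22 are under 1000 bases.

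Of 13 genes of heme synthesis, 4 rose with WD mothers and 1, or 7.69%, with CD mothers, beside 14.2% and 9.46% of all genes, and none fell. Alad, the second enzyme of the pathway, had 837, 734 and 748 normalised counts in WD_WD, against 263, 41.0 and 167 in WD_CD (log2 difference 2.65 ± 0.58, limma, adjusted p = 0.00723). Alas1, the rate-limiting first enzyme outside red cells, had 1649, 3900.3 and 1774 in WD_WD against 1225, 612 and 226 in WD_CD (2.02 ± 0.68, limma, adjusted p = 0.0472), and Urod rose by 1.34 ± 0.31 (adjusted p = 0.0092). The call of Alas1 was lost in 11 of its 17 alternatives, among them TMM scaling, edgeR and the replicate block (adjusted p from 0.0583 to 0.528 in the 11). Tmem14c, a mitochondrial heme precursor transporter, rose with WD mothers (1.71 ± 0.35, limma, adjusted p = 0.00541) and with CD mothers (1.18 ± 0.35, adjusted p = 0.0411), the second call being lost in 9 of 17 alternatives. Under library totals Urod with WD mothers and Tmem14c with CD mothers changed sign, to -0.05 and -0.26. Alas2, the erythroid form and the one erythroid marker measured of 14 listed, had 1574 to 12801 normalised counts in WD_WD and 768 to 10648 in CD_WD, against 51.8 to 889.6 in WD_CD and 119.7 to 997 in CD_CD, and was not called. The median of the list was 0.86 with WD mothers and 0.26 with CD mothers, beside 0.01 and -0.02 over all genes. Under library totals it was -0.52 and -1.18, beside -1.36 and -1.45 over all genes.

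The list of heme breakdown, uptake and transport was mixed. Of 17 genes, 3 rose and 2 fell with WD mothers, 29.4% called beside 24.4% of all genes (14.2% higher and 10.2% lower). With CD mothers 2 rose and 2 fell, 23.5% beside 15% (9.46% higher and 5.55% lower). Hpx, the plasma heme scavenger hemopexin, had 223, 268 and 863 normalised counts in WD_WD and 246, 264 and 93.8 in CD_WD, against 14.0, 1.99 and 58.2 in WD_CD and 3.47, 2.04 and 17 in CD_CD. It rose by 4.75 ± 1.15 (limma, adjusted p = 0.0116) with WD mothers and by 4.87 ± 1.15 (adjusted p = 0.0146) with CD mothers. The second call was lost in 2 of 17 alternatives. The lowest values of Hpx stand on few reads: in WD_CD replicate 2 and CD_CD replicate 2, 1 read equals 0.398 and 0.409 normalised counts. Blvra, the other biliverdin reductase, rose in both (2.34 ± 0.45, limma, adjusted p = 0.00380; 1.45 ± 0.45, adjusted p = 0.0485), as Blvrb was higher in both, but the call with CD mothers was lost in 10 of 17 alternatives. Hmox2, the constitutive heme oxygenase, rose with WD mothers (2.11 ± 0.38, limma, adjusted p = 0.00260) and gave 0.64 ± 0.38 with CD mothers. Abcg2, a transporter that exports porphyrins, fell in both (-3.62 ± 0.82, limma, adjusted p = 0.00839, and -3.42 ± 0.82, adjusted p = 0.0155), the second call being lost in 2 of 17 alternatives. Cd163, the macrophage receptor for hemoglobin bound to haptoglobin, fell with WD mothers (-4.30 ± 1.46, limma, adjusted p = 0.0482), with 179.8, 3.03 and 3.96 normalised counts in WD_WD against 469, 329 and 176 in WD_CD and the groups overlapped. In WD_WD replicates 2 and 3, 1 read equals 1.52 and 3.96 normalised counts, so the 2 low values stand on very few reads. The call of Cd163 was lost in 11 of 17 alternatives, edgeR, DESeq2 and the replicate block among them (adjusted p from 0.0601 to 0.214 in the 11). Pgrmc1, a heme-binding membrane protein, fell with CD mothers (-1.34 ± 0.40, limma, adjusted p = 0.0414), a call lost in 8 of 17 alternatives.

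Genes of iron storage and regulation fell and rose. Bmp6, the signal by which liver endothelium reports iron stores to hepatocytes, had 223, 100.1 and 83.1 normalised counts in WD_WD and 30.4, 293 and 397 in CD_WD, against 1794, 3469.7 and 2915 in WD_CD and 1728, 3219 and 1629.9 in CD_CD. Epas1, the hypoxia-inducible factor that drives iron uptake genes in the gut, had 719, 321 and 732 in WD_WD and 81.1, 674 and 769 in CD_WD, against 4907, 7848 and 5875 in WD_CD and 5110.1, 6564 and 6100.1 in CD_CD. Both fell with either kind of mother. The log2 differences with WD and CD mothers were -4.41 ± 0.78 and -3.76 ± 0.78 for Bmp6 and -3.46 ± 0.68 and -4.08 ± 0.68 for Epas1 (limma, adjusted p from 0.00226 to 0.00748). Of the 15 endothelial markers, 7 fell with WD mothers and 8 with CD mothers, and their part in the falls of Bmp6 and Epas1 was not tested. Herc2, a ubiquitin ligase, also fell with WD mothers (-1.66 ± 0.40, limma, adjusted p = 0.0114). Ncoa4, the receptor that carries ferritin to the lysosome, rose with WD mothers (1.34 ± 0.41, limma, adjusted p = 0.0332), as did Skp1a, a ubiquitin ligase subunit (0.88 ± 0.29, adjusted p = 0.0416), and Pcbp1, an iron chaperone that loads ferritin, rose with CD mothers (1.16 ± 0.34, adjusted p = 0.0369). These calls were near the threshold: that of Ncoa4 was lost in 9 of 17 alternatives (adjusted p from 0.0518 to 0.109 in the 9), that of Skp1a in 11 (from 0.0512 to 0.131), TMM scaling and edgeR among them for both, and that of Pcbp1 in 8. Under library totals these 3 changed sign, to -0.04, -0.50 and -0.29. The median of the 11 genes was 0.13 with WD mothers and -0.15 with CD mothers.

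Among 15 genes of iron uptake, reduction and transport, 6.67% were called in each comparison, beside 24.4% and 15% of all genes: 1 fell and none rose. It was Cp, the copper ferroxidase ceruloplasmin, with 614, 748 and 416 normalised counts in WD_WD and 114, 745 and 1306 in CD_WD, against 2741, 3879 and 3194 in WD_CD and 2914, 3667 and 3156 in CD_CD (log2 difference -2.49 ± 0.66, limma, adjusted p = 0.0179; -2.74 ± 0.66, adjusted p = 0.0164). The call of Cp was lost in 2 of 17 alternatives with WD mothers and in 3 of 17 with CD mothers. Cyb561, a membrane ferrireductase family member, gave -2.31 and -2.40 without passing. For the mother's diet and for the interaction, limma called 0 of the 80 companion genes; 7 had an unadjusted p under 0.05 in WD offspring, 0 in CD offspring and 3 for the interaction. edgeR and DESeq2 also called 0 of the 80 in these 3 contrasts.

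**Figure D5:**
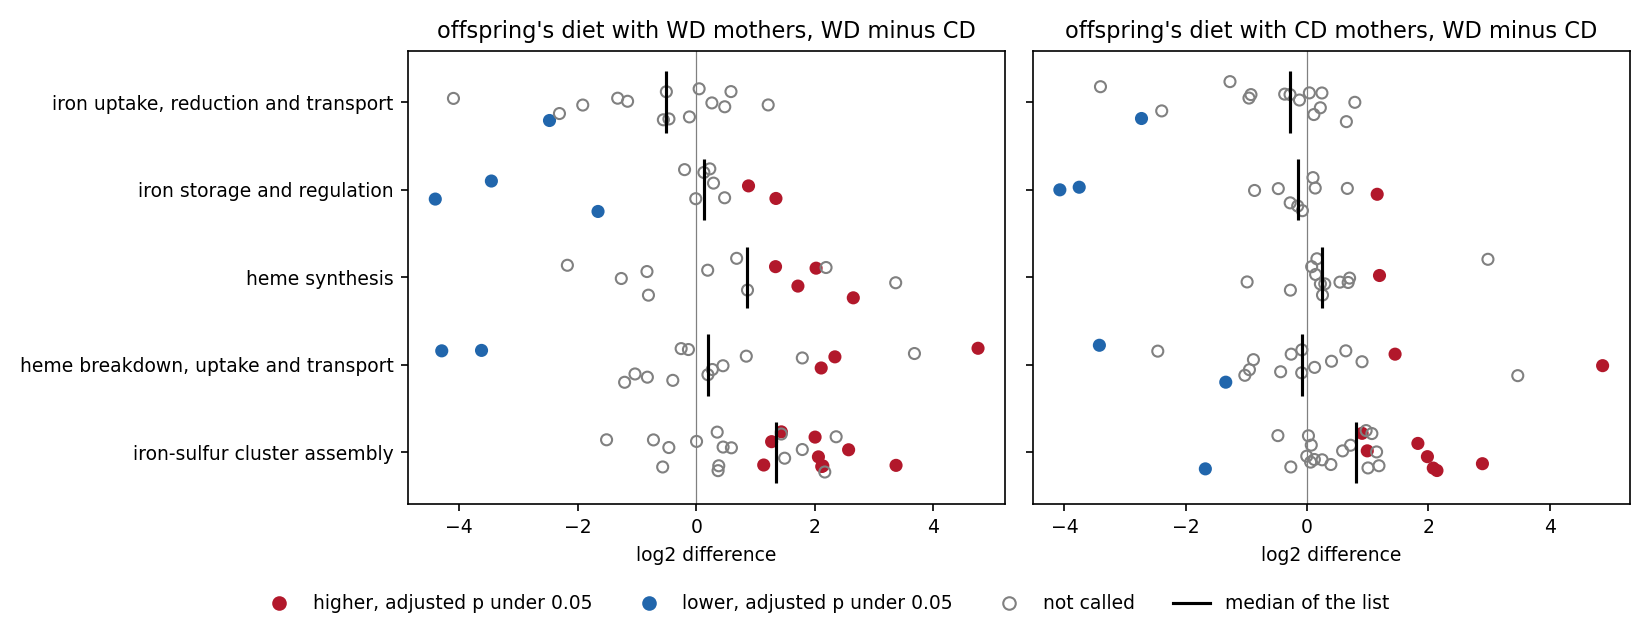
Log2 difference between offspring diets (WD minus CD) of 80 companion genes in 5 lists, with WD mothers (left) and CD mothers (right); filled points passed limma's test at an adjusted p under 0.05, lines are list medians, and vertical scatter within a list has no meaning. The iron-sulfur list has the highest medians of the 5, 1.35 and 0.81, followed by heme synthesis at 0.86 and 0.26.

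The genes most like each member across the 12 libraries were ranked by Pearson's r. Ftl1 and Fth1 had a Pearson r of 0.99 with each other on the log2 scale. The genes most like Fth1 were Gpx1 (0.998), Atox1 (0.995) and S100a13 (0.992), and for Ftl1 they were Gpx1 (0.992), Fth1 (0.991) and Bcl2a1b (0.990). Gpx1 encodes a glutathione peroxidase and Atox1 a copper chaperone. For Hmox1 the nearest were Ifitm2 (0.963), C1qb (0.959) and Dpep2 (0.957). Slc11a1 was most like Tmed10 (0.969), Fuca2 (0.968) and Plin2 (0.952), the last a lipid droplet protein. Slc40a1 was most like Gsto1 (0.946), 1700112E06Rik (0.937) and Atp6v0d2 (0.929). Blvrb went with Sec61b (0.979), Hsbp1 (0.976) and Ndufb4 (0.976), Tfrc with Aldh9a1 (0.934), Ctps2 (0.911) and Ppil3 (0.902), and Ireb2 with Slco2b1 (0.951), R3hdm2 (0.951) and Ago1 (0.950).

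Set against the mean log2 level of the 16 macrophage markers, r was 0.93 for Hmox1, 0.90 for Slc11a1, 0.85 for Slc40a1, 0.81 for Ftl1, 0.75 for Fth1, 0.68 for Blvrb, 0.51 for Tfrc and -0.62 for Ireb2. Against the mean of the endothelial markers it was -0.35 for Hmox1, -0.38 for Slc11a1, -0.29 for Slc40a1, -0.78 for Ftl1, -0.80 for Fth1, -0.80 for Blvrb, -0.66 for Tfrc and 0.76 for Ireb2. The 12 libraries share the split by offspring diet and the depth that goes with it, so these r describe the libraries and carry no p. In CD_WD replicate 1, whose macrophage sum was the lowest of the WD offspring, Ftl1 was also the lowest of the 6 WD offspring libraries at 561327, while Fth1, at 530364, and Blvrb, at 2386, were not, and all 3 lay above every CD offspring library.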

How the data were processed

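Per the submitters' processing notes, HISAT2 2.2.1 with featureCounts 2.0.1 and DESeq2 were used on GRCm38, also called mm10, beside SAMtools 1.13, Trim Galore 0.6.10 and FastQC 0.12.1. The sources used here state neither order nor settings, strand handling or rule for keeping genes. A normalised signal per gene and library was deposited by the authors. All 127860 values came out as whole reads times 1 factor per library (tolerance 0.01), so they are counts over a size factor. The authors' deposited table also holds log2 fold changes, p-values and adjusted p-values for the mother's diet. Of the symbols, 18 had been turned into dates and 1 was repeated.

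Here values were put on a log2 scale with a pseudocount of 1, which understates the change of low genes, and tested with limma 3.58.1 (R 4.3.3) with a mean-variance trend. All 12 libraries entered a model with a mean per group, leaving 8 residual degrees of freedom, and Benjamini-Hochberg adjustment ran over 10655 genes, with 0.05 as the threshold. The fit was tested on simulated data. edgeR 4.0.16 and DESeq2 1.42.0 on the whole reads recovered were among 23 alternatives. The members, the companion lists and the markers were chosen with earlier results of these data known. Named are all members, up to 4 called genes per list, contrast and direction, up to 2 not called, and the 3 genes most like each member; Alas2, some genes called in both comparisons and Hmox2 with CD mothers are named beyond this. Lengths and UTRs come from GENCODE M21.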

Additional observations from a re-analysis of the deposited data

Results flagged for a closer look

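Hmox2, the constitutive heme oxygenase, was higher with WD mothers in WD offspring and lower with WD mothers in CD offspring. It had 1875, 1955 and 1703 normalised counts in WD_WD, against 515, 826 and 1509 in CD_WD, and 498, 314 and 496 in WD_CD, against 627, 528 and 512 in CD_CD. In each offspring diet the mothers' groups did not overlap, in CD offspring narrowly, with 498 below 512. With WD mothers, 5.86% of all genes were higher without overlap in WD offspring, and 4.87% were lower in CD offspring. The log2 differences of Hmox2 were 1.09 ± 0.38 in WD offspring (limma, adjusted p = 0.836) and -0.38 ± 0.38 in CD offspring (limma, adjusted p = 0.9998). The difference between both effects was 1.47 on the log2 scale, with a standard error of 0.54, and limma's test of it gave an adjusted p of 0.997, so it did not pass. CD_WD replicate 1, the library with the highest lymphocyte marker sum, had the lowest value of the WD offspring.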

How the results depend on the processing

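Of the counts, the one that moved most was that of companion genes called for the offspring's diet with CD mothers: 17 as reported, 11 with edgeR, 10 without a trend, 10 with only the groups compared, 36 with library weights, 26 with library totals and 4 to 15 when a library was left out; the cause was not tested, except that the fits without a library have fewer samples. With WD mothers the count was 24, and 18 to 24 when a library was left out. When a library was left out, members higher without overlap numbered 6 to 7 with WD mothers and 3 to 6 with CD mothers. The 6 with CD mothers was the count without CD_WD replicate 1. These ranges do not cover library totals, under which the log2 difference with WD mothers was -0.24 for Slc40a1 and 0.85 for Slc11a1. Members and companions called for the mother's diet and the interaction stayed at 0 under every alternative run. Over the named companion genes and their alternatives, 447 differences kept direction and call, 109 kept direction but no longer passed, and 5 changed sign.

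Several differences changed sign, and the cause was not tested. Those for the mother's diet and the interaction were not called under any setting. For the mother's diet in CD offspring, Hmox1 was 0.047 with edgeR and 0.032 with DESeq2 (-0.63 to 0.45 over left-out libraries), and Fth1 was -0.11 with library weights and -0.0029 with library totals (-0.20 to 0.25). There Tfrc ran from -0.44 to 0.94 and Blvrb from -0.84 to 0.045. In WD offspring Hmox1 was -0.013 with library weights and ran from -0.43 to 1.55. For the interaction, Slc11a1 was -0.43 with library weights and ran from -0.48 to 0.99, Hmox1 from -0.25 to 1.73 and Ireb2 from -0.74 to 0.24. With library totals, Slc40a1 (-0.24), Ncoa4 (-0.039), Skp1a (-0.50) and Urod (-0.046) changed sign with WD mothers, and Tfrc (-0.76), Pcbp1 (-0.29) and Tmem14c (-0.26) with CD mothers.

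No pairing by replicate number was seen. Over 18 pairs with the same number, deviations from the group means had correlations from -0.232 to 0.074. Their median was -0.034, against 0.0086 for pairs with different numbers. The labels do not say whether libraries with the same number belong together, and such correlations cannot settle it. With the replicate block, 20 companion genes were called with WD mothers and 12 with CD mothers, and 0 members for the mother's diet. Depth limits Ireb2, Slc40a1 and Tfrc most, with as few as 10, 12 and 32 reads in a library.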
